A study of Mus musculus with 96 samples.

Results

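The genes described here encode the machinery with which mitochondria make ATP, and the ribosome that translates the proteins encoded in the mitochondrial genome. The family was picked with earlier results of these data known, and its members follow from their names. A gene belongs if its symbol in the platform annotation starts with Nduf, Uqcr, Cox4 to Cox8, Atp5 or Sdha to Sdhd. Symbols that start with Mrpl or Mrps and a digit also belong. This gave 133 genes on 150 probes, of 13241 genes on 16281 probes in all. Of the 133, 120 had enough values to be tested, of 11593 genes tested in all. The 120 comprise 25 subunits of complex I and 5 of its assembly factors, 2 subunits of complex II and 1 assembly factor, 6 subunits of complex III, 10 of complex IV, 10 of complex V, 40 genes of the large and 19 of the small mitochondrial ribosome subunit, and 2 pseudogene symbols. The classes follow the symbols, so Ndufa4, now also counted as a complex IV subunit, stands with complex I, and Mrps18a and Mrps30 stand with the small subunit. The 13 genes without enough values were Ndufc1, Cox4i1, Cox5a, Cox6a1, Cox8a, Atp5a1, Atp5d, Atp5j, Atp5md, Atp5o, Mrpl4, Mrps17 and Mrps36, and they are not described further.

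Complexes I to IV pass electrons from NADH and succinate to oxygen and pump protons across the inner mitochondrial membrane, and complex V, the ATP synthase, uses the resulting gradient to make ATP. A few core subunits are translated inside the organelle on the mitochondrial ribosome, whose proteins, like nearly all other subunits, are encoded in the nucleus and imported. Macrophages activated with bacterial lipopolysaccharide and interferon-gamma are known to shift from respiration towards glycolysis, and the nitric oxide they make inhibits cytochrome c oxidase.

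Expression was measured on 2-colour arrays in RAW 264.7 cells, an established mouse macrophage-like line transformed by Abelson virus, so all groups share the background of 1 transformed line. The treatments were LPS with IFNG, LPS with 2MA, LPS alone, IFNG alone and 2MA alone. LPS is lipopolysaccharide, given as 100 ng with 100 pM LPS binding protein; IFNG is interferon-gamma at 5 nM; 2MA is 2-methyl-thio-ATP, an ATP analogue that acts on purine receptors, at 500 uM; and each array compares treated cells with untreated cells cultured for the same time. Times were 1, 2 and 4 h, and also 30 min for LPS alone, which makes 16 groups of 3 sets, each set hybridised in both dye orientations. A value below is the mean log2 ratio of treated to untreated RNA of a set over its 2 arrays, so that 1 means a doubling, and n is 3 sets unless a smaller number is given. Ratios carry no levels, so genes are compared by their response only. The array medians of nonzero values lay between -0.0183 and 0.0442. A change shared by all genes, such as fewer cells or less RNA per cell, therefore cannot be seen.

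The arrays held between 13508 and 15004 probes with a value. The direction of the ratios was checked with genes known to respond: Tnf, Il1b, Ccl4 and Ptgs2 were above 0 at all LPS times on every array with a value, as were Irf1 and Socs1 at all IFNG times. At 4 h of LPS, 4 of 6 tested macrophage markers rose and 1 fell, and none of the tested fibroblast, T cell, B cell or epithelial markers passed the test. A gene "rose" or "fell" where limma's moderated test against 0, adjusted by Benjamini-Hochberg over all genes tested, gave a p under 0.05. With 3 sets a group, the median standard error of a response was 0.11. Nothing in the labels says whether the sets came from separate cultures, so the spread that the p-values rest on may be technical.

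The 250 bases before and the 50 bases after the annotated start are shown for 4 genes on which the results turn: Mrpl52 and Mrpl39, which rose most at 4 h of LPS, and Mrps6 and Mrpl12, which fell most. The sequences are RefSeq's on GRCm38.p6, 5′ to 3′ on the gene's strand. Capitals mark an exact match, on either strand, to the GC-rich core recognised by NRF1, with 1 base free, or to CCGGAAGT, recognised by ETS factors such as GABP; both factors are known regulators of nuclear genes for mitochondrial proteins. Mrps6 holds neither.
Mrpl52 (chr14:54426659-54426958, + strand): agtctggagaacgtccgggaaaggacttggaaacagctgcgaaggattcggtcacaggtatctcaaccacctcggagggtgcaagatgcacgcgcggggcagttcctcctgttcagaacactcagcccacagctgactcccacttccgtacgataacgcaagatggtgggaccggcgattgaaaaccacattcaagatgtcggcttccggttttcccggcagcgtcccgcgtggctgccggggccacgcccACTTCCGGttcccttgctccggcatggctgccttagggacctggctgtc
Mrpl39 (chr16:84735195-84735494, - strand): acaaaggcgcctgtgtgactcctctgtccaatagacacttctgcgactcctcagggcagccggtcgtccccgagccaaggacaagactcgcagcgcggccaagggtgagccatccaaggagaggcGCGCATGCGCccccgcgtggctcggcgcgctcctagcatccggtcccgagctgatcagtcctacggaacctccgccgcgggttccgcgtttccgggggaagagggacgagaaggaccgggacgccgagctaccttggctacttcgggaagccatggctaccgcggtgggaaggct
Mrps6 (chr16:92058086-92058385, + strand): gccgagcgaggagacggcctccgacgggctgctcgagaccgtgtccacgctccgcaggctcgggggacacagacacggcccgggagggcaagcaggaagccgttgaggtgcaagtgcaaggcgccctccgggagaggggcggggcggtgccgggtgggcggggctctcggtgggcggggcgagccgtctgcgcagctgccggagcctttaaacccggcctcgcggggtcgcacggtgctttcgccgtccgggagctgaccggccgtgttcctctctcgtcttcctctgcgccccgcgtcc
Mrpl12 (chr11:120484387-120484686, + strand): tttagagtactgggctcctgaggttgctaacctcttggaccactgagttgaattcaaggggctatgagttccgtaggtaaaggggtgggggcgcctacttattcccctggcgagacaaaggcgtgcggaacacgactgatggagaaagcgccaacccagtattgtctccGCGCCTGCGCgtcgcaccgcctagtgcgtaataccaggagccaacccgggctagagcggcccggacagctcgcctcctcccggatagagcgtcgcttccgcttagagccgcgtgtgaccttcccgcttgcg
Mrpl52 has the ETS motif just downstream of its start, and Mrpl39 and Mrpl12 each have 1 NRF1 motif upstream of it. Thus 1 gene that rose and 1 that fell carry the NRF1 motif. Windows were found for 117 of the 133 genes, 124 windows in all. The NRF1 motif lay in 21.8% of them, against 7.75% of the 9788 windows of tested genes and 4.6% of all 32851 windows. The ETS motif lay in 10.5%, against 5.62% and 3.89%; the core of YY1 in 4.03%, against 0.93% and 0.633%; and CACGTG, the E-box, in 5.65%, against 8.96% and 7.15%. These shares describe the letters in the windows and say nothing of binding.

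Responses of these genes spread less than those of the array as a whole: at 4 h of LPS the SD over genes was 0.23 for the 120 and 0.51 for all genes tested. Of the 120, 66 (55%) passed the test in no group; of all genes tested, 50.6% passed in none and 49.4% in at least 1. A mean response of at least 2-fold in some group was reached by 2 of the 120 (1.67%), Mrpl52 and Mrps6, against 9.85% of all genes tested. Most calls came from the groups with LPS, as the plot of the share of genes that passed shows. At 4 h, 5 rose and 27 fell with LPS and IFNG, where 15.2% of all genes rose and 18.8% fell. With LPS and 2MA, 6 rose and 21 fell, where 14.9% of all genes rose and 18.5% fell. With LPS alone, 7 rose and 11 fell, where 12.7% of all genes rose and 15.9% fell. Over the mitochondrial genes, 24 of 120 mean responses lay above 0 with LPS and IFNG, 36 with LPS and 2MA and 33 with LPS. The median response at 4 h was -0.16 with LPS and IFNG, -0.08 with LPS and 2MA and -0.09 with LPS, against -0.01, -0.01 and 0.00 over all genes. With 1 set left out, the number that passed with LPS and IFNG at 4 h was 13 without set 1, 46 without set 2 and 20 without set 3, beside 23.7%, 33.4% and 28.3% of all genes. With LPS it was 9 and with LPS and 2MA 16 without set 1, beside 18.4% and 23.9% of all genes.

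**Figure D1:**
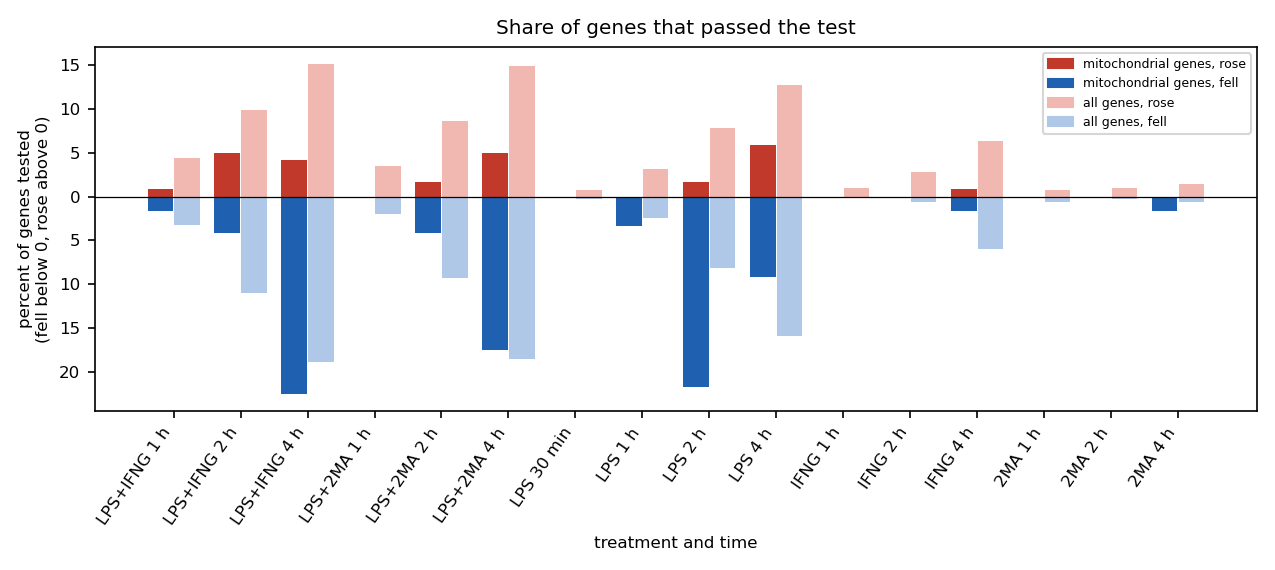
Percent of genes that rose (bars above 0) and fell (bars below 0) at a limma adjusted p under 0.05 in each treatment and time, for the 120 mitochondrial genes (dark bars, left of each pair) and for all 11593 genes tested (pale bars, right). The mitochondrial bars are tallest below 0 with LPS and IFNG at 4 h, where 27 of 120 fell, and with LPS at 2 h, where 26 fell.

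With LPS and IFNG and with LPS and 2MA, fewer genes passed at 2 h than at 4 h. With LPS 28 passed at 2 h and 18 at 4 h, an order that turned round without set 1 (5 and 9) and without set 3 (9 and 16). At 2 h with LPS and IFNG, 6 rose and 5 fell, where 9.89% of all genes rose and 10.9% fell; after quantile normalization 2 rose and 3 fell, and 4 passed without set 1 and 5 without set 3, beside 12.5% and 17.5% of all genes. With LPS and 2MA, 2 rose and 5 fell, where 8.57% rose and 9.23% fell; after quantile normalization 2 rose and 3 fell, and without set 3 there were 4 calls. With LPS, 2 rose and 26 fell, where 7.84% rose and 8.18% fell. At 1 h, 1 rose and 2 fell with LPS and IFNG, where 4.43% of all genes rose and 3.19% fell; after quantile normalization 1 rose and none fell, and no gene passed without set 1 and 1 without set 3. None passed with LPS and 2MA at 1 h (11 at an unadjusted limma p under 0.05), where 5.45% of all genes did. With LPS at 1 h none rose and 4 fell, where 3.13% of all genes rose and 2.48% fell; no gene passed without set 1, and 1 each without set 2 and without set 3. At 30 min of LPS none passed (3 unadjusted), where 1.04% of all genes did.

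The large subunit of the mitochondrial ribosome held the genes that rose most. Mrpl52, a protein of that subunit, was the strongest. Its set values at 4 h were 0.67, 1.11 and 0.98 with LPS and IFNG, 0.93, 0.79 and 1.32 with LPS and 2MA, and 0.67, 1.27 and 1.19 with LPS. All 9 set values lay above 0, and the treatments overlapped. The means were 0.92 ± 0.23, 1.01 ± 0.28 and 1.05 ± 0.32 (SD), or 1.89-, 2.02- and 2.06-fold, with limma adjusted p of 7.51e-07, 1.16e-07 and 8.24e-08. With IFNG alone at 4 h Mrpl52 gave 0.11, 0.33 and -0.04, and with 2MA alone -0.21, 0.58 and -0.10, neither of which passed (adjusted p 0.668 and 0.95). Mrpl52 had risen at 2 h, by 0.72 ± 0.25 with LPS and IFNG, 0.77 ± 0.22 with LPS and 2MA and 0.58 ± 0.25 with LPS (adjusted p 9.06e-05, 4.05e-05 and 0.00206). At 1 h it passed with LPS and IFNG, at 0.46 ± 0.26 (adjusted p 0.0302), a call lost when any 1 set was left out (adjusted p 0.0729 without set 1, 0.379 without set 2 and 0.0914 without set 3). Without set 3 the 2 h LPS value was 0.51 (adjusted p 0.0634).

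Mrpl39, another large subunit protein, rose in the same groups at 2 and 4 h. At 4 h its sets gave 0.80, 0.65 and 0.53 with LPS and IFNG, 0.86, 0.67 and 0.57 with LPS and 2MA, and 0.81, 0.76 and 0.49 with LPS. The means were 0.66 ± 0.13, 0.70 ± 0.15 and 0.69 ± 0.17 (adjusted p 1.84e-09, 4.68e-10 and 1.05e-09). Its 2 probes agreed, at 0.67 and 0.71 with LPS. It also rose with IFNG alone at 4 h, with set values of 0.44, 0.42 and 0.31 and a mean of 0.39 ± 0.07 (adjusted p 0.000157). With 2MA alone the sets gave 0.13, 0.10 and 0.03 (adjusted p 0.833). At 2 h it rose by 0.48 ± 0.09 with LPS and IFNG, 0.39 ± 0.14 with LPS and 2MA and 0.28 ± 0.07 with LPS (adjusted p 3.69e-06, 0.000144 and 0.00722); without set 3 the LPS value was 0.24 (adjusted p 0.15).

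Other ribosome genes rose less. Mrps24, the mitochondrial counterpart of bacterial S3 in the small subunit, had set values at 4 h of 0.32, 0.67 and 0.71 with LPS and IFNG, 0.53, 0.56 and 0.41 with LPS and 2MA, and 0.49, 0.54 and 0.04 with LPS. The means were 0.57 ± 0.22, 0.50 ± 0.08 and 0.36 ± 0.28 (adjusted p 1.01e-05, 7.14e-05 and 0.00456). The LPS value rests on sets 1 and 2, and without either it did not pass (adjusted p 0.177 without set 1 and 0.092 without set 2). Mrpl27, the counterpart of bacterial L27 near the peptidyl transferase centre, averaged 0.28 ± 0.21, 0.34 ± 0.21 and 0.26 ± 0.20 in those 3 groups (adjusted p 0.0247, 0.00558 and 0.0458), and lost its call in each group without set 1 (adjusted p 0.0822, 0.0698 and 0.221) and without set 2 (adjusted p 0.234, 0.0833 and 0.286). Mrpl30, of the large subunit, rose to 0.41 ± 0.01 with LPS at 4 h, with set values of 0.42, 0.42 and 0.40 (adjusted p 0.00215, and 0.0538 without set 2). It averaged 0.39 ± 0.31 with LPS and 2MA, with set values of 0.69, 0.41 and 0.08, and 0.04 with LPS and IFNG (adjusted p 0.00294 and 0.845). Mrpl17 and Mrpl35 also rose with LPS at 4 h, by 0.26 and 0.25, and Mrpl35 rose by 0.28 with LPS and 2MA.

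**Figure D2:**
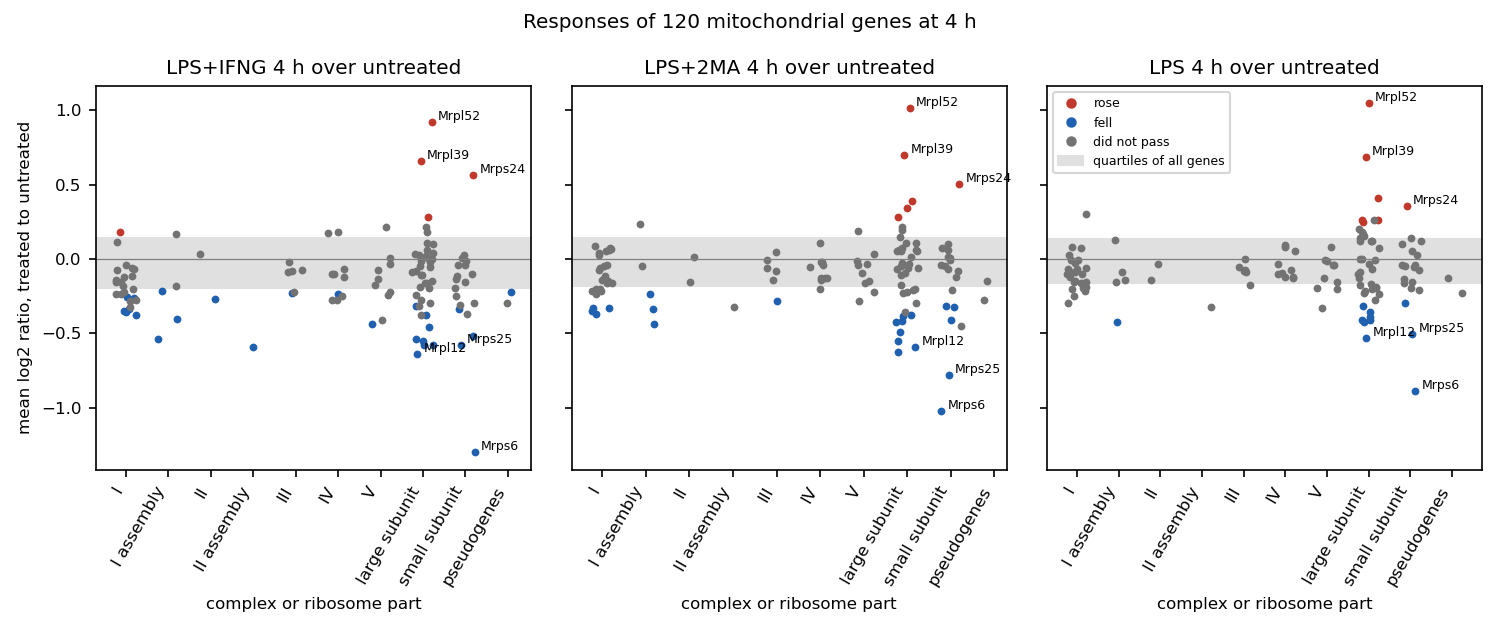
Mean log2 ratio of treated to untreated cells at 4 h (vertical axis) for each of the 120 genes, by complex or ribosome part (horizontal axis), with LPS and IFNG (left panel), LPS and 2MA (middle) and LPS (right). Red points rose, blue points fell, grey points did not pass, and the grey band spans the quartiles of all genes tested. Most respiratory complex points lie inside or just below the band, and the points farthest from 0, such as Mrpl52 at 1.05 and Mrps6 at -0.88 with LPS, are ribosome genes.

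The deepest fall was in Mrps6, the small subunit counterpart of bacterial S6. At 4 h its set values were -1.44, -1.20 and -1.26 with LPS and IFNG, -1.06, -1.02 and -0.99 with LPS and 2MA, and -0.94, -0.63 and -1.08 with LPS. The LPS and IFNG sets lay below all 6 sets of the other two. The means were -1.30 ± 0.13, -1.02 ± 0.03 and -0.88 ± 0.23, that is 2.46-, 2.03- and 1.85-fold below untreated cells (adjusted p 2.6e-09, 4.86e-07 and 8.89e-06). The difference between LPS with IFNG and LPS was -0.41 with a standard error of 0.21, which did not pass (adjusted p 0.473). Mrps6 was also 1 of 2 genes that fell with 2MA alone at 4 h, with set values of -0.76, -0.41 and -0.48 and a mean of -0.55 ± 0.18 (adjusted p 0.04). That call was lost without set 1 (adjusted p 0.705) and without set 3 (0.178). With IFNG alone its sets gave -0.15, -0.12 and -0.57 (adjusted p 0.279). At 2 h with LPS it fell to -0.56 ± 0.23, with set values of -0.79, -0.56 and -0.34 (adjusted p 0.00651, and 0.206 without set 1). In RefSeq Mrps6 overlaps Slc5a3, which averaged -0.96 with LPS at 4 h, and whether the probe separates them is not known.

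Large subunit genes also fell. Mrpl12, the counterpart of the bacterial L7/L12 stalk protein, had set values at 4 h of -0.79, -0.57 and -0.55 with LPS and IFNG, -0.53, -0.69 and -0.54 with LPS and 2MA, and -0.71, -0.51 and -0.37 with LPS. Its means of -0.64 ± 0.13, -0.59 ± 0.09 and -0.53 ± 0.17 had adjusted p of 3.47e-05, 0.000109 and 0.00056, and its 2 probes gave -0.60 and -0.46 with LPS. Mrpl43, of the large subunit, fell in 7 of the 16 groups. At 4 h its sets gave -0.68, -0.33 and -0.72 with LPS and IFNG, -0.80, -0.43 and -0.65 with LPS and 2MA, and -0.56, -0.37 and -0.34 with LPS. Mrpl43, which overlaps Twnk in RefSeq, had means of -0.58 ± 0.21, -0.62 ± 0.19 and -0.42 ± 0.12 (adjusted p 1.09e-06, 2.5e-07 and 0.00021). Mrpl40 averaged -0.58 ± 0.20, -0.49 ± 0.11 and -0.41 ± 0.09 in those groups (adjusted p 2.96e-06, 4.13e-05 and 0.000586). Its LPS call was lost without set 1 (adjusted p 0.0648).

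Mrps25, of the small subunit, had its lowest mean with LPS and 2MA. Its set values at 4 h were -0.68, -0.29 and -0.76 with LPS and IFNG, -0.71, -0.59 and -1.03 with LPS and 2MA, and -0.44, -0.27 and -0.81 with LPS. The groups overlapped, with means of -0.58 ± 0.25, -0.78 ± 0.23 and -0.51 ± 0.28 (adjusted p 0.000826, 1.43e-05 and 0.00392). Without set 1 the LPS and IFNG and the LPS calls were lost (adjusted p 0.0536 and 0.0594), and without set 3 the LPS call (0.168). Mrps25 overlaps Nr2c2 in RefSeq, and Nr2c2 averaged -0.50 with LPS at 4 h. Of the other ribosome genes, Mrpl34, Mrpl42, Mrps12, Mrpl18 and Mrpl2 fell in all 3 groups at 4 h. Mrpl34 was the tightest, with sets of -0.58, -0.52 and -0.51 with LPS and IFNG, -0.37, -0.42 and -0.35 with LPS and 2MA, and -0.36, -0.45 and -0.36 with LPS. Mrps12, the counterpart of bacterial S12 at the decoding centre, averaged -0.52, -0.41 and -0.29 there (adjusted p 4.32e-06, 0.000174 and 0.00725). In all, 4 of 59 ribosome genes rose and 12 fell with LPS and IFNG at 4 h, 6 rose and 13 fell with LPS and 2MA, and 7 rose and 10 fell with LPS. Ribosome genes thus moved both ways within each treatment, and the median over the 59 was -0.11, -0.06 and -0.06. Of all genes, 15.2%, 14.9% and 12.7% rose in these groups and 18.8%, 18.5% and 15.9% fell.

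**Figure D3:**
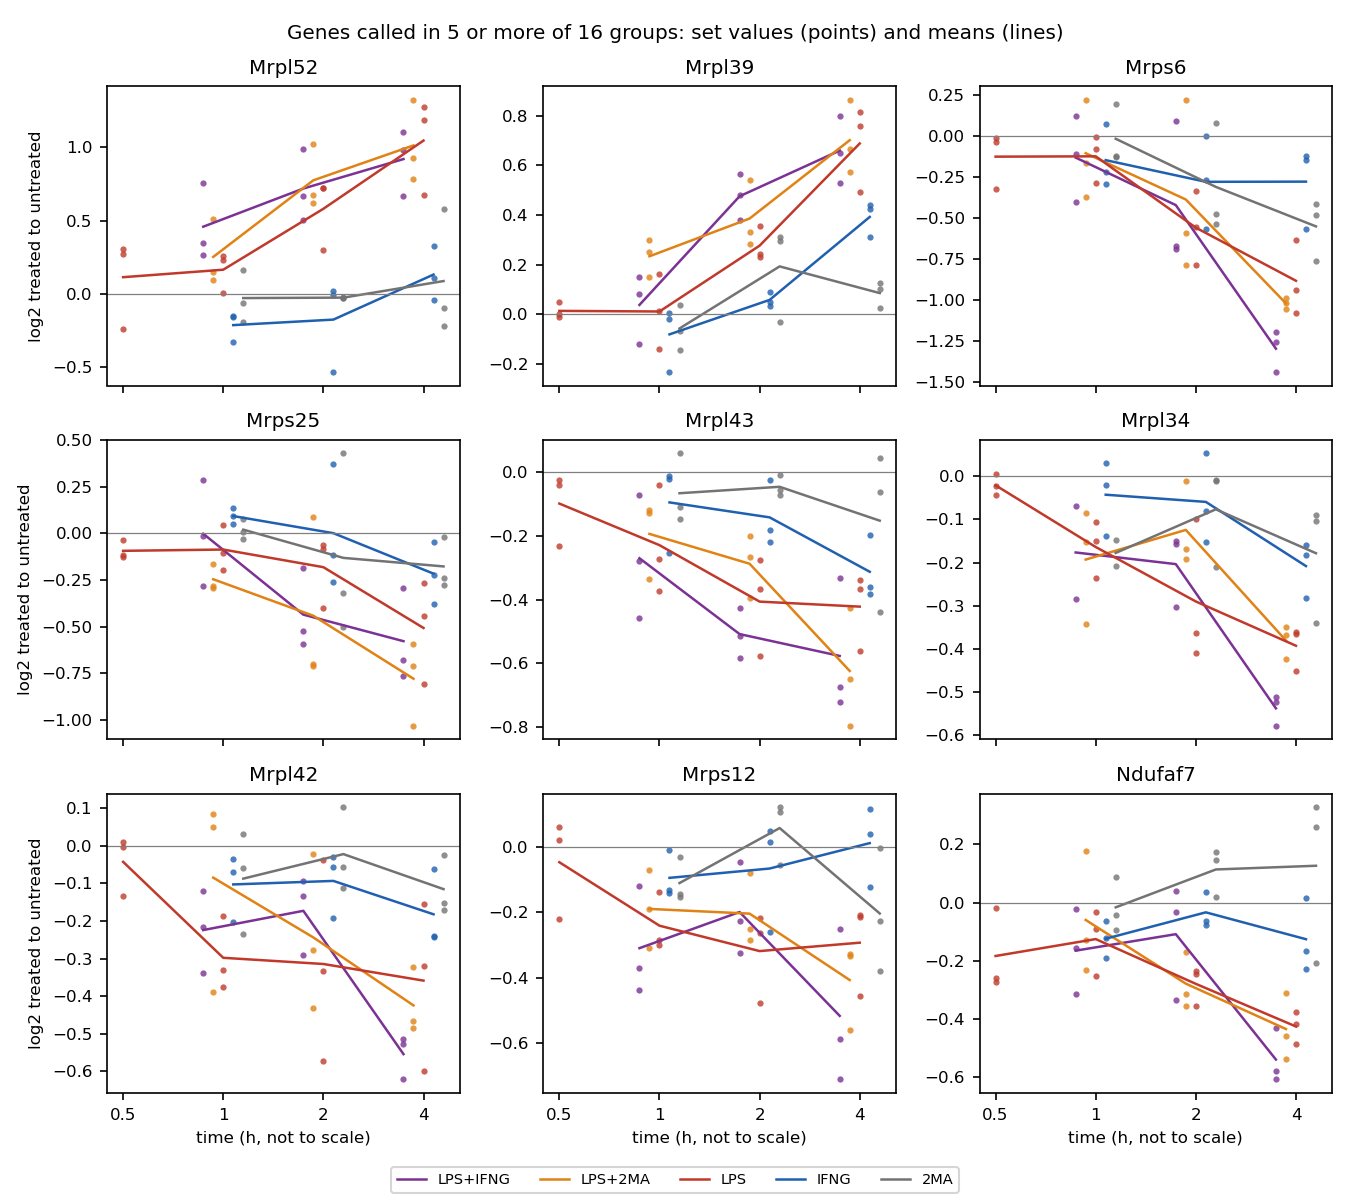
Log2 ratio of treated to untreated cells (vertical axis, a scale for each panel) at 0.5, 1, 2 and 4 h (horizontal axis, steps not to scale) for the 9 genes that passed the test in 5 or more of 16 groups; points are sets and lines join the group means. Mrpl52 and Mrpl39 climb in the 3 treatments with LPS, and the other 7 genes lie below 0 in them at 4 h, with Mrps6 at -1.30 with LPS and IFNG at 4 h.

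At 4 h the respiratory complexes had fewer calls and smaller extremes than the ribosome genes, but their medians lay further below 0. Of their 53 tested subunits at 4 h, 1 rose and 10 fell with LPS and IFNG, 5 fell with LPS and 2MA, and none passed with LPS, where 4 had an unadjusted limma p under 0.05. Their median responses were -0.15, -0.09 and -0.09, and 46, 41 and 44 of the 53 means lay below 0. In those groups 18.8%, 18.5% and 15.9% of all genes fell. Within complex I, whose many accessory subunits surround the electron-carrying core, 6 of 25 subunits fell with LPS and IFNG and 4 with LPS and 2MA. Ndufa8, Ndufa11 and Ndufb11 fell in both of these groups, while Ndufa6, Ndufb3 and Ndufb8 fell with LPS and IFNG and Ndufab1 with LPS and 2MA. Ndufab1, the mitochondrial acyl carrier protein, which is also a complex I subunit, had set values of -0.43, -0.31 and -0.36 with LPS and 2MA at 4 h (mean -0.37 ± 0.06, adjusted p 4.74e-05). It averaged -0.12 with LPS and IFNG and -0.07 with LPS, neither of which passed. The lowest and highest complex I means with LPS at 4 h were -0.30 for Ndufb3 and 0.30 for Ndufa1 (adjusted p 0.0671 and 0.272). Ndufa9 was the subunit that rose with LPS and IFNG, by 0.18 ± 0.09 (adjusted p 0.0239).

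The assembly factors of complex I, which help to build it but are not part of the finished enzyme, included Ndufaf7, a methyltransferase. Its set values at 4 h were -0.61, -0.43 and -0.58 with LPS and IFNG, -0.54, -0.46 and -0.31 with LPS and 2MA, and -0.48, -0.42 and -0.38 with LPS. The means of -0.54 ± 0.09, -0.43 ± 0.12 and -0.43 ± 0.05 passed (adjusted p 1.45e-06, 5.42e-05 and 9.3e-05). The sets of Ndufaf7 agreed but its dye orientations did not: 2 of 6 arrays with LPS and IFNG and 1 of 6 in each of the other two lay above 0. The other extreme of the class with LPS was Ndufaf5 at 0.13, which did not pass. Ndufaf4 fell with LPS and IFNG and with LPS and 2MA, by 0.40 and 0.33 on the log2 scale, with 2 of 6 arrays above 0 in each, and did not pass with LPS.

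In complex II, which is also an enzyme of the tricarboxylic acid cycle, the iron-sulfur subunit Sdhb had set values of -0.25, -0.29 and -0.26 with LPS and IFNG at 4 h (mean -0.27 ± 0.02, adjusted p 0.0167). With LPS alone it averaged -0.14 and the membrane anchor Sdhc -0.03, neither of which passed. The assembly factor Sdhaf4 fell with LPS and IFNG, with sets of -0.82, -0.32 and -0.63 (mean -0.59 ± 0.25, adjusted p 0.00495), and averaged -0.32 with LPS and 2MA and -0.32 with LPS (adjusted p 0.157 and 0.17). With LPS the call for Sdhaf4 was gained without set 2 (-0.43, adjusted p 0.00721). In complex III, Uqcrh, the hinge protein beside cytochrome c1, averaged -0.23 ± 0.22 with LPS and IFNG, -0.28 ± 0.08 with LPS and 2MA and -0.17 ± 0.13 with LPS (adjusted p 0.0439, 0.0125 and 0.162), with 2, 1 and 2 of 6 arrays above 0. Its opposite with LPS was Uqcrb at 0.00. In complex IV, cytochrome c oxidase, means with LPS at 4 h ran from -0.13 for Cox7c to 0.09 for Cox6b1, and Cox7b was the subunit that fell with LPS and IFNG, by 0.23 on the log2 scale (adjusted p 0.0479). In complex V, Atp5c1, the gamma subunit that rotates inside the catalytic head, had sets of -0.58, -0.20 and -0.53 with LPS and IFNG (mean -0.44 ± 0.21, adjusted p 0.0263). With LPS and 2MA it averaged -0.16 over the 2 sets with a value (adjusted p 0.612), and with LPS -0.33 (adjusted p 0.125; -0.42 and 0.00887 without set 2). The highest mean of complex V with LPS was 0.08, for Atp5pb of the peripheral stalk.

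At 2 h of LPS, 15 of the 53 respiratory subunits fell and none rose, where 8.18% of all genes fell and 7.84% rose. The median over the 53 was -0.25, against -0.01 over all genes tested, and 49 of the 53 lay below 0. Of the 59 ribosome genes 2 rose and 8 fell. In complex I, 8 of 25 subunits fell. Ndufb3, an accessory subunit, had set values of -0.95, -0.19 and -0.32 (mean -0.48 ± 0.41, adjusted p 0.00382). Ndufc2, another accessory subunit, gave -0.64, -0.19 and -0.29 (mean -0.38 ± 0.24, adjusted p 0.00105). Set 1 was the lowest in both, and it was low across the respiratory genes. The median over the 120 genes was -0.33 in set 1, -0.02 in set 2 and -0.17 in set 3, against -0.01, -0.02 and 0.01 over all genes. Without set 1 of LPS at 2 h, 7 genes passed, beside 11.7% of all genes, and Ndufb3 (-0.25, adjusted p 0.271) and Ndufc2 (-0.24, adjusted p 0.11) no longer did. Of those 7, Sdhb, Cox7a1, Ndufab1, Ndufa10 and Mrpl43 fell and Mrpl39 and Mrpl52 rose, and 6 were among the 28 that passed with all sets. With a whole set left out of every group, 5 passed at 2 h of LPS without set 1, 32 without set 2 and 9 without set 3, beside 8.62%, 14.3% and 12.1% of all genes. Ribosome genes that fell with LPS at 2 h included Mrpl43, with sets of -0.58, -0.27 and -0.37 (mean -0.41 ± 0.16, adjusted p 0.000759; 0.0788 without set 1), and Mrpl51, with sets of -0.33, -0.43 and -0.28 (mean -0.35 ± 0.08, adjusted p 0.0147; 0.103 without set 1 and 0.13 without set 2).

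Other groups showed the same spread between sets, as the plot of set medians shows. With LPS and IFNG at 4 h the median over the 120 genes was -0.30 in set 1, -0.02 in set 2 and -0.17 in set 3, and with 2MA at 4 h -0.24, 0.04 and -0.03, while the medians over all genes stayed between -0.02 and 0.01. A dye difference ran through all groups. In 48 of 48 sets the median over the mitochondrial genes was lower on the array with treated RNA in Cy5 than on the array with treated RNA in Cy3, ranging from -0.41 to 0.01 and from -0.24 to 0.21. A set value averages both orientations; the part of dye and set in the counts was not tested beyond the alternatives given.

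**Figure D4:**
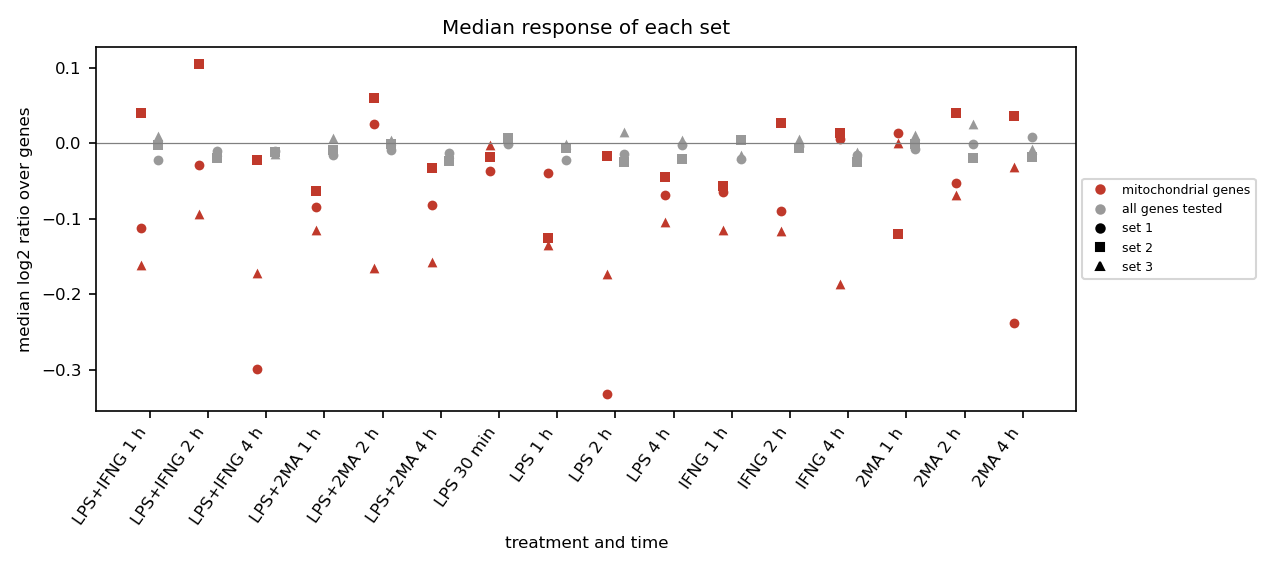
Median log2 ratio of treated to untreated cells (vertical axis) over the 120 mitochondrial genes (red) and over all genes tested (grey) in each set of each treatment and time (horizontal axis); circles, squares and triangles are sets 1, 2 and 3. The grey points stay near 0, while the red points spread most within LPS at 2 h (-0.33, -0.02 and -0.17) and LPS with IFNG at 4 h (-0.30, -0.02 and -0.17).

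With LPS and IFNG at 2 h, and with LPS and 2MA at 2 h, few respiratory subunits passed: none of 53 in the first (11 ribosome genes did, 6 up and 5 down) and 1, Ndufab1, in the second. Ndufab1 had sets of -0.15, -0.45 and -0.37 with LPS and 2MA (mean -0.32 ± 0.15, adjusted p 0.000674; 0.0607 without set 2), but 1 of its 4 probes taken alone gave -0.08 (adjusted p 0.648). Ndufb3 averaged 0.02 with LPS and IFNG and 0.04 with LPS and 2MA at 2 h. Mrpl43 fell by 0.51 and 0.29 on the log2 scale in these groups (adjusted p 1.97e-05 and 0.0176). The second call was lost without set 1 (adjusted p 0.0898) and without set 3 (0.244). Mrpl51 gave sets of -0.38, -0.56 and -0.39 with LPS and IFNG and averaged -0.43 ± 0.19 with LPS and 2MA (adjusted p 0.000994 and 0.00172; 0.11 for the second without set 2). Mrpl13, the counterpart of bacterial L13, rose with LPS and IFNG, with sets of 0.31, 0.40 and 0.08 (mean 0.27, adjusted p 0.0454; 0.338 without set 1 and 0.227 without set 2). Mrpl34 fell to -0.20 with LPS and IFNG, a call lost without set 1 (adjusted p 0.16) and without set 3 (0.299).

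The LPS response differed between 30 min, 1, 2 and 4 h for 8 of the 120 genes by limma's F test over the 4 times (16 at an unadjusted p under 0.05), where 16.7% of all genes tested did. Of the 8, 7 were ribosome genes and 1, Ndufc2, a complex I subunit. Without set 1 the count was 3, without set 2 it was 5 and without set 3 it was 4. The share of all genes in those fits was not counted, so whether the drop is particular to these genes is not known. Mrpl39 had means of 0.01, 0.01, 0.28 and 0.69 in time order (adjusted p 5.49e-06), and Mrpl52 0.11, 0.17, 0.58 and 1.05 (adjusted p 0.000873), with the highest value at 4 h. Mrps6 ran the opposite way, at -0.13, -0.13, -0.56 and -0.88 (adjusted p 0.0146). Mrpl34 likewise gave -0.02, -0.16, -0.29 and -0.39 (adjusted p 0.0186). Mrpl30 changed direction, with means of -0.09, -0.53, -0.24 and 0.41 (adjusted p 6.54e-05). Its sets at 1 h were -0.81, -0.45 and -0.32 (mean -0.53 ± 0.26, adjusted p 0.000706; 0.142 without set 1). Mrpl17 gave -0.06, -0.21, -0.06 and 0.26 and Mrps18b 0.15, -0.01, -0.21 and 0.12 (adjusted p 0.0264 and 0.0254). Ndufc2 had its lowest mean at 2 h, with -0.02, -0.20, -0.38 and 0.07 (adjusted p 0.0207). Besides Mrpl30, the genes that fell at 1 h of LPS were Mrpl42, Ndufs5-ps and Mrpl53, the last with sets of -0.49, -0.34 and -0.24 (mean -0.36, adjusted p 0.0249; 0.378, 0.186 and 0.0504 without set 1, 2 and 3).

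IFNG alone moved few of these genes. At 4 h, 1 rose and 2 fell, where 6.31% of all genes rose and 5.99% fell; after quantile normalization 1 rose and none fell, after centring 2 rose and 2 fell, and 1 gene passed without set 1 or set 3. Beside the rise of Mrpl39 given above, Mrpl43 had sets of -0.36, -0.20 and -0.38 (mean -0.31 ± 0.10, adjusted p 0.0123; 0.143 without set 1 and 0.183 without set 3). Mrpl34 had sets of -0.16, -0.18 and -0.28 (mean -0.21 ± 0.07, adjusted p 0.0326), a call lost without any 1 set (0.2, 0.0888 and 0.313). None passed at 1 h (11 unadjusted) or 2 h (1 unadjusted), where 1.13% and 3.43% of all genes did.

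With 2MA alone at 4 h, none rose and 2 fell, Mrps6 and Mrpl3, where 1.42% of all genes rose and 0.578% fell. Neither passed without set 1 or without set 3, and 1 did without set 2. Mrpl3, of the large subunit, had sets of -0.33, -0.31 and -0.23, with 2 of 6 arrays above 0 (adjusted p 0.0196). None passed at 1 h (2 unadjusted) or 2 h (9 unadjusted), where 1.41% and 1.33% of all genes did.

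The study set pairs of ligands against 1 ligand, and both pairs share the LPS samples. Between LPS with IFNG and LPS, 1 of the 120 genes was higher at 2 h, where 2.04% of all genes were. That gene was Mrps16, a small subunit protein. Its sets were 0.24, 0.40 and 0.09 with LPS and IFNG and -0.35, -0.22 and -0.04 with LPS, which do not overlap. The difference was 0.45 with a standard error of 0.12 (adjusted p 0.0359), and it was lost without any 1 set (adjusted p 0.512, 0.28 and 0.0693). No gene passed at 1 h (none unadjusted) or 4 h (3 unadjusted), where 1.01% and 4.15% of all genes did. Same-numbered sets of these groups deviated together within a time, but over the LPS times they did not always do so (correlations down to -0.30). With the set number alone as a replicate block, 4 genes were higher at 2 h, where 2.73% of all genes were. These were Mrps16 (0.45, adjusted p 0.0248), Uqcrq of complex III (0.29, 0.0405), Atp5j2 of complex V (0.49, 0.0419) and Cox7a1 of complex IV (0.48, 0.0471). With that block 1 gene, Mrpl24 of the large subunit, was lower at 4 h (-0.33, adjusted p 0.00855 with the block and 0.137 without it), where 2.53% of all genes were. The median difference over the 120 genes was 0.03 at 1 h, 0.18 at 2 h and -0.09 at 4 h. The value at 2 h contains the low set 1 of LPS. With the sets of each time as a random block, chosen after seeing the data, 11 of the 120 (9.17%) passed at 2 h, all higher with LPS and IFNG, where 6.3% of all genes passed in either direction. They were Mrps16, Mrpl13, Mrpl30, Mrpl32, Ndufa10, Ndufb3, Ndufb11, Ndufs5-ps, Uqcrq, Cox7a1 and Atp5j2. At 4 h 2 passed with that block, Mrpl24 and Mrpl44, both lower (-0.33 and -0.58, adjusted p 0.00845 and 0.0315), where 8.55% of all genes did.

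Between LPS with 2MA and LPS none of the 120 genes passed at 1, 2 or 4 h, with or without the block on set number (1, 14 and 1 at an unadjusted limma p under 0.05 without it). With the sets of each time as a random block 1 passed at 2 h, Ndufc2 (0.41, adjusted p 0.0451), and 1 at 4 h, Ndufab1 (-0.30, adjusted p 0.0478), where 0.604% and 1.8% of all genes did. Without a block, of all genes tested 0.0776%, 0.0949% and 0.354% did, so calls were rare across the array too. The median difference over the 120 genes was 0.02, 0.15 and -0.02. A p that misses the threshold does not show that both treatments act alike: the median standard error of a difference was 0.16.

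Against the sum of the single responses at 4 h, the joint response passed for none of the 120 genes with LPS and IFNG (2 unadjusted), where 2.71% of all genes did, and for none with LPS and 2MA (1 unadjusted), where 0.0604% did. The nearest was Mrpl39, whose response to LPS and IFNG was 0.66 while LPS gave 0.69 and IFNG 0.39. Its joint response minus the sum was -0.45, -0.53 and -0.28 by set, with a mean of -0.42 (adjusted p 0.0754). It passed when all arrays entered with a dye term (adjusted p 0.0255) and with the sets of a time as a random block (0.0162).

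Lists of other genes around mitochondria were counted at 4 h in the order LPS with IFNG, LPS with 2MA, and LPS; the shares of all genes given above are the background. Of 12 tested genes of the tricarboxylic acid cycle and pyruvate dehydrogenase, none rose and 3 fell in each group. Dlat, the acetyltransferase of pyruvate dehydrogenase, averaged -0.63, -0.50 and -0.55 (adjusted p 2.38e-05, 0.000635 and 0.000224). Idh3a, of NAD-linked isocitrate dehydrogenase, averaged -0.57, -0.48 and -0.25 (adjusted p 1.07e-09, 5.15e-08 and 0.00177). Of 10 electron carriers and assembly factors of complexes III to V, 3 rose and 2 fell, 3 rose and 2 fell, and 1 rose and 2 fell. Cox17, the copper chaperone of cytochrome c oxidase, averaged 0.52, 0.86 and 0.58 (adjusted p 0.00193, 1.89e-06 and 0.000767). Bcs1l, which inserts the Rieske protein into complex III, averaged -0.54, -0.59 and -0.64 (adjusted p 7.68e-07, 1.47e-07 and 3.55e-08). Etfdh, which passes electrons from fatty acid oxidation to ubiquinone, averaged -0.52, -0.46 and -0.41 (adjusted p 1.31e-06, 1.35e-05 and 0.000113). Genes of this list thus moved in both directions.

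Of 6 tested genes of mitochondrial genome expression, 1 rose and 3 fell, 1 rose and 1 fell, and 2 rose and 1 fell. Slirp, which stabilises mitochondrial messenger RNAs, averaged 0.71, 1.00 and 0.71 (adjusted p 0.0002, 9.74e-07 and 0.000268). Polg, the mitochondrial DNA polymerase, averaged -0.26, -0.70 and -0.45 (adjusted p 0.0267, 1.19e-07 and 0.000205). Tfam, which packages mitochondrial DNA, fell with LPS and IFNG at -0.46 (adjusted p 0.00572) and averaged -0.06 and 0.12 in the other two, where it did not pass. Of 20 import genes 1 rose and 2 fell, 1 rose and 1 fell, and none passed; of 9 chaperones and proteases 1 rose and 2 fell, 1 rose and 1 fell, and 1 rose and 1 fell. Of 8 regulators of mitochondrial biogenesis 2 rose and 1 fell, 3 rose and 1 fell, and 2 rose and none fell. Gabpa, a subunit of the ETS factor named above, averaged 0.58, 0.50 and 0.52 (adjusted p 0.000143, 0.000874 and 0.000747), and Myc 3.77, 4.21 and 3.95. Of 10 tested glycolysis genes 3 rose and 1 fell, 2 rose and 2 fell, and 1 rose and none fell. Pfkp, a phosphofructokinase, averaged 1.04, 0.53 and 0.31 (adjusted p 2.99e-08, 0.00145 and 0.0828). Nos2, which makes nitric oxide, averaged 3.67, 3.01 and 3.02.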

How the data were processed

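Per the labels, treated and untreated RAW 264.7 RNA were hybridised together on 96 2-colour arrays. The values used are the authors' deposited log2 ratios of Cy5 to Cy3, 1 for each probe and array; the scanner, background correction and normalization are not given in the sources used here. Every per-sample column was used.

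Ratios were turned to treated over untreated by the dyes in the labels, and values of exactly 0 were read as missing (753 probes were 0 on every array, and 14 values stood at the largest value, 6.64). Both orientations were averaged to a set value, and sets 1 to 3 are the replicates. A probe entered if it had at least 2 of 3 sets in every group, which kept 13698 of 16281 and left out 2583; 1.03% of the set values kept were missing. Probes were named from GEO's platform annotation, which can be old: 13738 carry 1 gene, 52 several and 2491 none here. Probes of a gene were averaged, giving 9755 named genes and 1838 unnamed probes. One mean per group was fitted with limma 3.58.1 in R 4.3.3 (lmFit, eBayes; 32 residual degrees of freedom) over all 16 groups. Responses, differences, departures from the sum of single responses and an F test over the LPS times were adjusted by Benjamini-Hochberg over all 11593 genes, with a threshold of 0.05. Array precision is limited by their number. The fit was tested on simulated data.

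Same-numbered sets deviated together in each comparison of a ligand pair with LPS (lowest correlation 0.12), so the fit with set number as a block is given beside it; the pairing comes from the numbers in the labels and this check. Alternatives were other handling of zeros, centring, quantile normalization, other filters, that block, a dye term, blocks by time, single probes and leaving out sets; the block by time and leaving out set 1 of LPS at 2 h were chosen after seeing the data.

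Members and gene lists were chosen with earlier results of these data known. By rule, the text names up to 5 largest rises and 5 largest falls per comparison among genes that passed with 1 sign on every array (for differences, in every set), and the highest and lowest gene of each class with LPS at 4 h. Other genes named were chosen after their values were seen. For 1 label the 2MA dose reads nM rather than uM. Sequences come from RefSeq on GRCm38.p6 and were matched by Entrez gene identifier, with those shown picked by symbol.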

Additional observations from a re-analysis of the deposited data

Results flagged for a closer look

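For 8 mitochondrial genes the LPS response differed between 30 min, 1, 2 and 4 h by limma's F test, adjusted over all genes. These were 6.67% of the 120, where 16.7% of all genes tested differed. The adjusted p was 5.49e-06 for Mrpl39, 6.54e-05 for Mrpl30, 0.000873 for Mrpl52, 0.0146 for Mrps6, 0.0186 for Mrpl34, 0.0207 for Ndufc2, 0.0254 for Mrps18b and 0.0264 for Mrpl17. From 30 min to 4 h the means ran 0.01, 0.01, 0.28 and 0.69 for Mrpl39, while Mrpl30 had its lowest mean, -0.53, at 1 h and its highest, 0.41, at 4 h.

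For Mrps16 the response at 2 h differed between LPS with IFNG and LPS. The means were 0.24 and -0.20, the difference was 0.45 with a standard error of 0.12, and all 3 set differences lay above 0 (limma adjusted p 0.0359). Mrps16 was 1 of 120 genes (0.833%), where 2.04% of all genes were higher. Its call was lost after quantile normalization (adjusted p 0.208). It was also lost without set 1, 2 or 3 (adjusted p 0.512, 0.28 and 0.0693), and without set 1 of LPS at 2 h alone (0.208).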

How the results depend on the processing

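Of the named responses and differences under the alternatives, 691 values kept their side of the threshold, 63 lost a call and 6 gained one. No call reversed. Most of the named responses and differences were picked because they passed with 1 sign on every array, or for differences in every set. Refits of the same values could therefore hardly reverse them, and the absence of reversals is no separate evidence for their direction. Nor does it show that values near 0 that passed in neither fit kept their direction. Counts of mitochondrial genes that passed moved more, with 219 within 1.5 times of the reported count and 60 beyond it. The 219 include every comparison in which no gene passed in either fit, so they overstate how steady the other counts were. The causes were not tested. Percentages in parentheses are the shares of all genes that passed in the same fit. For the test over LPS times no such share was counted in these fits or with a set left out. After quantile normalization 1 gene passed with LPS at 30 min (2.25%), 7 at 1 h of LPS (8.28%), 1 with IFNG at 4 h (11%), 1, 5 and 15 with LPS and IFNG at 1, 2 and 4 h (7.05%, 15.6% and 23.8%), 1 with LPS and 2MA at 1 h (6.91%), 0 between LPS with IFNG and LPS at 2 h (1.05%) and 4 in the test over LPS times. With set number as a replicate block 7 passed with LPS at 1 h (7.57%), 6 with IFNG at 4 h (15.9%), 5 with LPS and IFNG at 1 h (10.2%), 2 and 11 with LPS and 2MA at 1 and 2 h (7.2% and 21.9%), and, between LPS with IFNG and LPS, 4 at 2 h (3.97%) and 1 at 4 h (6.02%); this block changed no other call among the comparisons of pairs with LPS. It also gave calls with LPS at 4 h to Ndufb3 (adjusted p 0.0305), Sdhaf4 (0.0443) and Atp5c1 (0.0436). Over the LPS times same-numbered sets deviated together in some pairs of times and not in others (correlations from -0.30 to 0.42). The numbers therefore do not settle whether sets are paired over time. With all arrays and a dye term 7 passed with LPS at 1 h (7.06%), 7 with IFNG at 4 h (14.5%), 1 with 2MA at 4 h (4.1%), 7 with LPS and IFNG at 1 h (9.45%), 2 with LPS and 2MA at 1 h (7.21%), 3 between LPS with IFNG and LPS at 2 h (4.12%) and 1 against the sum of LPS and IFNG (4.18%). With sets of a time as a random block, chosen after seeing the data, 2 passed with LPS at 1 h (5.48%), 5 with IFNG at 4 h (12.8%), 1 with 2MA at 4 h (1.77%), 11 and 2 between LPS with IFNG and LPS at 2 and 4 h (6.3% and 8.55%), 1 and 1 between LPS with 2MA and LPS at 2 and 4 h (0.604% and 1.8%), and 1 against the sum of LPS and IFNG (4.49%). The 11 at 2 h, 9.17% of the 120, lay above the share of all genes, while the 1 without a block lay below it. With genes complete in all sets, fewer were tested, and 1 passed with 2MA at 4 h (2.34%) and 5 over the LPS times. Without set 1 of LPS at 2 h, 7 passed there (11.7%).

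Leaving out a set from every group gave ranges of 0 to 1 with LPS at 1 h (2.35% to 4.55%), 5 to 32 at 2 h (8.62% to 14.3%) and 9 to 16 at 4 h (18.4% to 25.7%); 1 to 4 with IFNG at 4 h (7.12% to 11.9%); 0 to 3 and 0 to 1 with 2MA at 2 and 4 h (0.104% to 1.84% and 0.112% to 1.67%); 0 to 2, 4 to 13 and 13 to 46 with LPS and IFNG at 1, 2 and 4 h (3.84% to 6.86%, 12.5% to 22.5% and 23.7% to 33.4%); 4 to 5 and 16 to 25 with LPS and 2MA at 2 and 4 h (11.2% to 14.8% and 23.9% to 30.4%); 0 to 0 between LPS with IFNG and LPS at 2 h (1.06% to 1.72%); and 3 to 5 over the LPS times. Signal over background is not known from ratios, so dim probes could not be told from bright ones.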

Other observations

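Genes beside the 9 members that passed in 5 or more groups were looked up in RefSeq, 2 on each side. Of these 36 neighbours 18 were tested. Of all genes tested, 12.7% rose and 15.9% fell at 4 h of LPS. At 4 h of LPS Mrpl52 (1.05) lay among genes that rose: Slc7a7, an amino acid transporter, at 0.70 ± 0.26, Mmp14, a membrane metalloproteinase, at 1.06 ± 0.42 and Lrp10 at 0.78 ± 0.26 (SD, n = 3 sets; limma adjusted p 0.000622, 4.92e-07 and 2.68e-07). Mrps6 (-0.88) overlaps Slc5a3, the myo-inositol transporter, at -0.96 ± 0.49 (adjusted p 0.00368), while Kcne2 (0.16) and Smim11 (-0.28) on its other side did not pass. Mrps25 (-0.51) overlaps Nr2c2, a nuclear receptor, at -0.50 ± 0.14 (adjusted p 0.00159), while Trh (-0.03) on its other side did not pass.

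Mrpl34 (-0.39) stands beside Abhd8 at -0.89 ± 0.21 (adjusted p 3.1e-06), and Mrps12 (-0.29) beside Fbxo17 at -0.39 ± 0.15 (adjusted p 5.22e-06). Near Mrpl42 (-0.36) the neighbours moved both ways, with Nudt4 at -0.48 ± 0.02, Cradd at -0.35 ± 0.22 and Socs2 at 0.43 ± 0.17 (adjusted p 1.71e-07, 0.0103 and 0.000817). The tested neighbours of Mrpl39 (0.69), Ncam2 at 0.03, Jam2 at -0.05 and Tmprss15 at 0.18, did not pass. Nor did Sema4g (-0.17) beside Mrpl43 (-0.42) or Prkd3 (-0.05) beside Ndufaf7 (-0.43). These are values of neighbours in the annotation, and no link between them was tested.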
